A study of Mus musculus with 13 samples.

Results

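Immunoglobulin heavy chain variable genes (Ighv genes) were followed in RNA sequencing libraries of perivascular adipose tissue, the fat around blood vessels, of C57BL/6 mice that had received splenocytes. Every gene whose identifier mapped to a mouse symbol beginning with Ighv was taken, which gave 124 of the 34013 genes in the count table. GENCODE M21 annotates 104 of the 124 as V gene segments and 20 as V pseudogenes, all on chromosome 12 (build GRCm38), in 15 families numbered in the symbol. The same annotation lists 61 further Ighv genes, which were not analysed here. The donors had type 2 diabetes together with an Nlrp3 knockout (NTS-R, 3 libraries), type 2 diabetes (TS-R, 4 libraries), an Nlrp3 knockout without diabetes (NS-R, 3 libraries) or were wild type without diabetes (WTS-R, 3 libraries). All recipients thus received splenocytes, and no group without a transfer was analysed here. The genotype label reads Nlrp3 KO for NTS-R and NS-R and WT for TS-R and WTS-R, without saying whether it describes donor or recipient. Age, sex, the diabetes model, the interval after transfer and whether libraries came from separate animals are not given in the sources used, so p-values measure the spread between these libraries, which may be technical.

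Each B cell joins 1 variable, 1 diversity and 1 joining segment of the heavy chain locus, and that choice is then carried by all of its daughter cells. In bulk RNA the counts over V segments therefore describe which rearranged heavy chains were transcribed, weighted by the very high immunoglobulin output of plasma cells. A repertoire of many cells spreads its counts over many segments, whereas a few abundant clones give most of the counts to a few segments. The segments of a family arose by duplication and remain similar in sequence. In mice, segments of the small families Ighv11 and Ighv12 are known from B-1a cells, the self-renewing B cells of body cavities that also live in fat depots. Fewer antibody-producing cells and less RNA per cell cannot be told apart in bulk tissue.

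Of the segments that led a deeper library, Ighv9-3, Ighv3-6 and Ighv1-26 are among the 7 printed here. Ighv13-2, Ighv6-3 and Ighv2-9-1 each took a large share of 1 library, and Ighv11-2 was the second gene of NTS-R replicate 1. Ighv9-1 and Ighv1-77, the first genes of TS-R replicate 1 and NS-R replicate 3, are not printed. Each printed sequence is the last 300 bases of the spliced germline coding sequence in GENCODE M21, read from the minus strand of chromosome 12 in GRCm38 from 5′ to 3′. Capitals mark the end of the segment from the codon of the conserved cysteine onwards, where the diversity segment is joined. The bases after that codon enter the third complementarity-determining region.
Ighv9-3: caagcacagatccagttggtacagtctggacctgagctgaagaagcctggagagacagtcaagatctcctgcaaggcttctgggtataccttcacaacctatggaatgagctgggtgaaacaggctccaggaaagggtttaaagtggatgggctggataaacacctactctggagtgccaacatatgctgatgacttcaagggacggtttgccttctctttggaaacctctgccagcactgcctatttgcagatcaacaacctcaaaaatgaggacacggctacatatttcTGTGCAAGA
Ighv3-6: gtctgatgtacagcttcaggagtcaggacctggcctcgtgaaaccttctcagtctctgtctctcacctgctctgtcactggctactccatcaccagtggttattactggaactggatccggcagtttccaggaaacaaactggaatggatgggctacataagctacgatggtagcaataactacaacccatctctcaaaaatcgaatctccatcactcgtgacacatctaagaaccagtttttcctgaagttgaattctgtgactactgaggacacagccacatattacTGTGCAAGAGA
Ighv1-26: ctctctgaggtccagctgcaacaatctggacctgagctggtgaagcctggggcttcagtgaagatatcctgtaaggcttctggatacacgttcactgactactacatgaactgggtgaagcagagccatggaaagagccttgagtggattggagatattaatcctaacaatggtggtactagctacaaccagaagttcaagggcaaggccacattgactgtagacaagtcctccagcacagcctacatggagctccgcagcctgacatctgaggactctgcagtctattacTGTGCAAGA
Ighv13-2: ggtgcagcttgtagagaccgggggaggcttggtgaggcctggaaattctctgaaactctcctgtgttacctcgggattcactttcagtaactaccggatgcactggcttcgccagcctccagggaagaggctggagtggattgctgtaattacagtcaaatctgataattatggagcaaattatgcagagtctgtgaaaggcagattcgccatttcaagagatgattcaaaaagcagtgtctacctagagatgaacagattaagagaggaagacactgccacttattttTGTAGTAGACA
Ighv11-2: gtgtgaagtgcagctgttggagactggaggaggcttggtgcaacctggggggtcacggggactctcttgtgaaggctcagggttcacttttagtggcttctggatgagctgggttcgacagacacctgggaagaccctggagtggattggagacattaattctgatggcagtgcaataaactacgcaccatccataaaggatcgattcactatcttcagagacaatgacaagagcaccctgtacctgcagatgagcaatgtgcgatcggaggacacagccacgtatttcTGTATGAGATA
Ighv6-3: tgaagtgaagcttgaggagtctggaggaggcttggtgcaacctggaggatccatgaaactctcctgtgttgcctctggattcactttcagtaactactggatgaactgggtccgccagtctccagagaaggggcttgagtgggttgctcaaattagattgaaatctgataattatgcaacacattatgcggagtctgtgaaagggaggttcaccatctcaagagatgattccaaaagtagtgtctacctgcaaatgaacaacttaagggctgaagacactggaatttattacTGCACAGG
Ighv2-9-1: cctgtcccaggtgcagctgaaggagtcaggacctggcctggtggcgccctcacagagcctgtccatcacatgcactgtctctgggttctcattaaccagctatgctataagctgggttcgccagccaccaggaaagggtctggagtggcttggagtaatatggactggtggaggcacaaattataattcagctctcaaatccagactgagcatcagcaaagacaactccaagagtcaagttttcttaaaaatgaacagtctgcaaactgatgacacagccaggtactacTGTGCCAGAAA
The marked end, with the cysteine codon included, was 8 to 11 bases long in these segments, and Ighv9-3 and Ighv1-26 ended in the same 9 bases. Over the whole coding sequence the 7 segments were 58.3% (Ighv9-3 and Ighv3-6) to 79.7% (Ighv13-2 and Ighv6-3) identical to each other. Their coding lengths of 350 to 359 bases were close, and CPM and shares of counts are not scaled by length. In the annotation they lie at chr12:114140692-114141122 (Ighv9-3), chr12:114288152-114288582 (Ighv3-6), chr12:114788372-114788805 (Ighv1-26), chr12:114357759-114358218 (Ighv13-2), chr12:114048241-114048812 (Ighv11-2), chr12:114391712-114392169 (Ighv6-3) and chr12:113769850-113770302 (Ighv2-9-1), each with its leader exon, intron and V exon on the minus strand. Across all 124 members the identity to the closest relative in the locus had a median of 94.7%, with 57 members at 95% or more and 4 at 99% or more. Reads can therefore be shared or lost between relatives, single-gene values are less certain than sums, and somatic mutation in rearranged genes adds to this.

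Total counts lay between 14216706 in NTS-R replicate 3 and 37011122 in NS-R replicate 1, so that 3 counts, the limit that a count of 0 allows, correspond to 0.211 and 0.0811 CPM (counts scaled to the library total) in these libraries. Several libraries stood apart. The fat marker Adipoq reached 438.5 CPM in TS-R replicate 3 and 943 to 1813 CPM in the other 12. TS-R replicate 3 was rich in lymph node transcripts, TS-R replicate 1 in skeletal muscle transcripts (Myh4 at 3227 CPM), and NS-R replicates 1 and 2 in airway transcripts (the club cell gene Scgb1a1 at 2324 and 4629 CPM, against at most 0.24 CPM elsewhere). The female-specific Xist was high in TS-R replicate 3 (805 CPM) and in NS-R replicate 3 (459.5 CPM) alone, and the Y-linked Ddx3y was high in the other 11. Nlrp3 lay at 0.352 to 1.22 CPM in NTS-R, 0.537 to 3.55 CPM in TS-R, 0.456 to 1.36 CPM in NS-R and 0.226 to 0.693 CPM in WTS-R, so it was counted in every library labelled with the knockout. The libraries were made from fat of the recipients, and the deleted part is not given in the sources used, so this level does not check the labels.

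Ighv transcripts were abundant in all TS-R libraries and scarce in all WTS-R libraries. The summed level of the 124 genes was 44.2, 96.2 and 172 CPM in NTS-R, and 92.7, 559, 3059.7 and 640 CPM in TS-R. It was 3.08, 4.05 and 189 CPM in NS-R, and 2.52, 1.30 and 2.39 CPM in WTS-R. Thus every TS-R library lay above every WTS-R library by at least an order of magnitude, NTS-R and TS-R overlapped through TS-R replicate 1, and NS-R split into 2 libraries near WTS-R and 1 library within the range of TS-R and above all of NTS-R. Only 42, 23 and 38 counts stood behind the WTS-R values, against 2762 to 89728 in TS-R. The exact 95% counting interval of WTS-R replicate 2 was 0.823 to 1.95 CPM and that of TS-R replicate 1 89.3 to 96.2 CPM. Intervals and limits of this kind cover counting error only, since reads without molecular identifiers are not independent molecules.

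**Figure D1:**
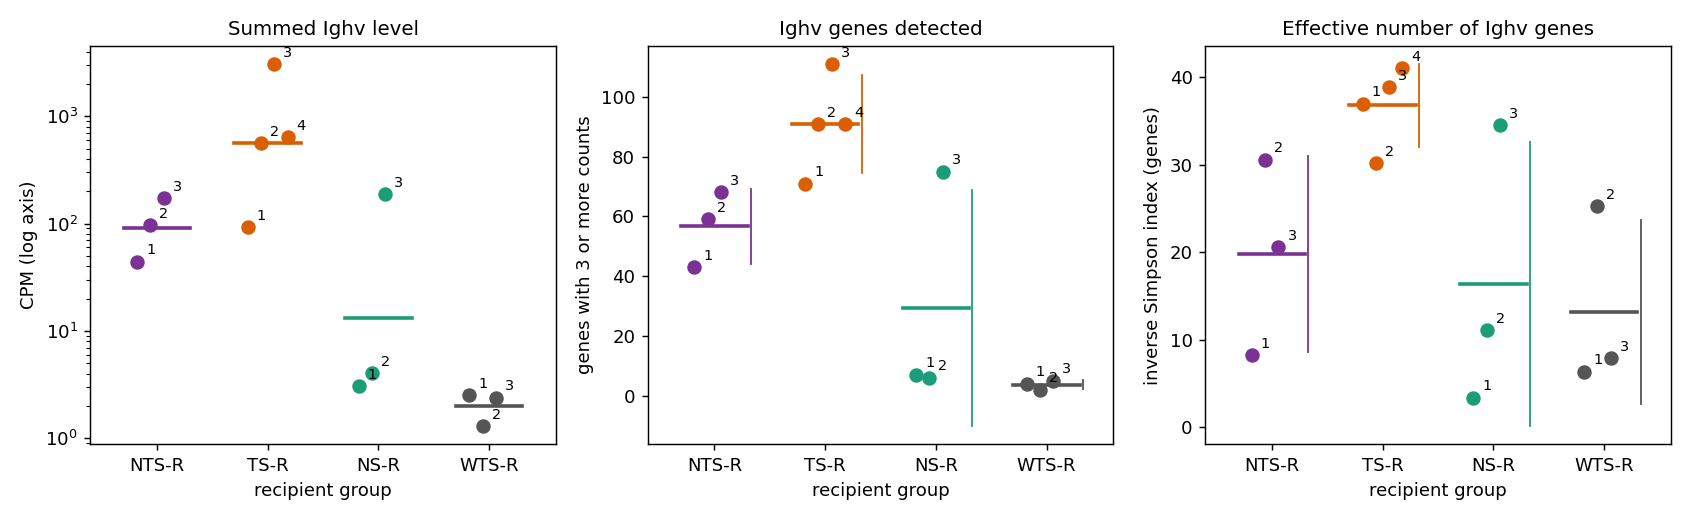
Summed Ighv level in CPM (log axis), number of Ighv genes with 3 or more counts, and effective number of Ighv genes (inverse Simpson index) in each of the 13 libraries. Points are libraries labelled with their replicate number, horizontal lines are group means (geometric for CPM) and vertical lines, drawn for the gene numbers only, ± 1 SD (n = 3, and 4 in TS-R). The TS-R libraries had 71 to 111 genes detected, against 2 to 5 in WTS-R, and NS-R replicate 3 stood far above NS-R replicates 1 and 2.

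In TS-R compared with WTS-R, the comparison of diabetic with non-diabetic donors among those with Nlrp3, the mean log2 summed level was 9.14 ± 2.06 (SD, n = 4) in TS-R and 0.99 ± 0.53 (SD, n = 3) in WTS-R. The difference of 8.15 exceeded the pooled SD of 1.63. It lay between 7.34 (without TS-R replicate 3) and 9.02 (without TS-R replicate 1) when single libraries were left out. Pooled over the group, TS-R held 110719 Ighv counts and WTS-R 103, a ratio of pooled CPM of 603. No score over the members was tested, because the members were chosen with earlier results of these data known.

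Gene by gene, 76 of the 124 members had all 4 TS-R values above all 3 WTS-R values, and none had the reverse. The background share of genes higher in this way was 12.0% over all 34013 genes. The other 48 members overlapped between the groups. At least 1 count was seen for 122 members in TS-R and for 37 members in WTS-R. In 71 members WTS-R held no count and the pooled TS-R level passed the limit that a 0 allows, so that only a lower bound can be given. With that limit set at 3 counts over the 3 WTS-R libraries together, the bounds had a median of 75.2-fold. In 4 members, Ighv1-38, Ighv1-70, Ighv8-4 and Ighv8-11, the pooled TS-R level was under that limit, so no fold is given. A further 35 members had counts enough for a ratio of pooled CPM, with a median of 368 and a range of 18.4 to 3978, and 14 members stayed at or under the limit in both groups.

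The largest of these ratios belonged to Ighv9-3, one of the most used segments of the deeper libraries. Its level was 1.81, 43.1, 192 and 49.8 CPM in TS-R, against 0.060, 0 and 0 CPM in WTS-R. The WTS-R values rest on 1 count, so the ratio of 3978 has an exact counting interval of 714 to 157100. Ighv3-6 was at 3.96, 38.9, 194 and 29.4 CPM in TS-R, against 0, 0 and 0.441 CPM in WTS-R, and Ighv1-26 at 1.14, 51.6, 150 and 35.9 CPM in TS-R, against 0.060, 0.169 and 0.063 CPM in WTS-R. All 3 genes were lowest in TS-R replicate 1 and highest in TS-R replicate 3, and the groups did not overlap.

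The members with the smallest unadjusted p in this comparison were less abundant segments. Ighv1-36 had 1.21, 2.03, 8.25 and 2.63 CPM in TS-R, against no count in WTS-R, which makes it at least 65.3-fold higher. Ighv3-4 (4.53, 0.406, 9.24 and 4.37 CPM in TS-R) and Ighv1-61 (0.268, 2.10, 10.8 and 3.85 CPM in TS-R) also had no count in WTS-R and were at least 89.8-fold and 78.0-fold higher. Ighv6-6 was at 1.51, 4.67, 26.2 and 6.04 CPM in TS-R, against 0, 0.056 and 0 CPM in WTS-R, and Ighv1-19 at 1.01, 2.44, 16.6 and 4.56 CPM in TS-R, against 0.060, 0 and 0 CPM in WTS-R. The groups did not overlap for any of the 5 genes, and for each the adjusted p was 0.0624 in edgeR's quasi-likelihood test and between 7.1e-06 and 3.6e-05 in DESeq2.

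Tests ran on the 17270 genes that passed edgeR's filter on low counts, 76 of them members, and the other 48 members were not tested. A member that passed mainly through high TS-R counts had to differ, so the following counts are a description. By edgeR with Benjamini-Hochberg adjustment over all genes, 0 members and 0 of all genes (0%) passed an adjusted p of 0.05. At an unadjusted p under 0.05, 75 members were higher in TS-R and 0 lower, against 15.2% and 7.07% of all genes. DESeq2 called 67 members higher, against 9.07% of all genes, and limma with voomWithQualityWeights called 71, against 13.5%. Without the filter edgeR called 61 of the 124, against 2.42% of all genes. Leaving out TS-R replicate 1 gave 62 edgeR calls (9.05% of all genes) and leaving out TS-R replicate 4 gave 26 (5.76% of all genes), while leaving out any other single library gave 0. The median fitted log2 fold change of the tested members was 9.46, or 7.54 with the 44 members without WTS-R counts at their bound, against 0.03 over all genes tested.

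NTS-R compared with TS-R asks whether donor Nlrp3 matters when the donor is diabetic, and it shares the TS-R libraries with the comparison above. The mean log2 summed level was 6.49 ± 0.98 (SD, n = 3) in NTS-R and 9.14 ± 2.06 (SD, n = 4) in TS-R. The difference of -2.65 exceeded the pooled SD of 1.72, but the groups overlapped, and it shrank to -1.84 without TS-R replicate 3. In 22 of the 124 members all NTS-R values lay below all TS-R values, against 10.1% of all genes, and in 0 members all lay above. The number of members with at least 1 count was 90 in NTS-R and 122 in TS-R.

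Among the members that separated the groups, Ighv1-36 had no count in NTS-R and 1.21 to 8.25 CPM in TS-R, at least 59.7-fold lower in NTS-R. Ighv3-4 was at 0.116, 0 and 0 CPM in NTS-R, against 4.53, 0.406, 9.24 and 4.37 CPM in TS-R. Ighv3-1 was at 0.058, 0 and 0 CPM in NTS-R, against 0.336, 2.50, 6.17 and 5.78 CPM in TS-R, with 1 count behind the NTS-R values and a ratio of pooled CPM of 0.0061 (exact counting interval 0.00015 to 0.0344). Ighv1-82 was at 0.174, 0.552 and 0.352 CPM in NTS-R, against 4.06, 6.36, 63.9 and 26.5 CPM in TS-R. None of these 4 overlapped between the groups, and their adjusted p was between 0.105 and 0.108 in edgeR and between 6.0e-05 and 0.0067 in DESeq2. Ighv2-9, at 0, 0.414 and 0.211 CPM in NTS-R and 0.369, 1.35, 9.79 and 11.6 CPM in TS-R, overlapped by NTS-R replicate 2.

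The most used segments separated NTS-R from TS-R in part. Ighv3-6 was at 1.16, 7.45 and 13.4 CPM in NTS-R, against 3.96, 38.9, 194 and 29.4 CPM in TS-R, and Ighv9-3 at 0.348, 5.80 and 19.98 CPM in NTS-R, against 1.81, 43.1, 192 and 49.8 CPM in TS-R. For both genes TS-R replicate 1 lay inside the NTS-R range. Ighv14-2 was at 0.116, 3.93 and 3.10 CPM in NTS-R, against 4.03, 31.7, 46.7 and 11.5 CPM in TS-R, and Ighv5-17 at 0.348, 1.04 and 1.41 CPM in NTS-R, against 4.03, 20.7, 75.7 and 6.94 CPM in TS-R. These 2 genes, each among the 10 highest of 4 of the deeper libraries, did not overlap between the groups. Ighv13-2 was the only one of the 76 tested members with a fitted log2 fold change above 0 (0.95 ± 1.42, SE; edgeR adjusted p 0.761). It was at 14.0, 1.45 and 0.492 CPM in NTS-R, against 0.168, 3.52, 7.95 and 1.29 CPM in TS-R, and NTS-R replicate 1 alone was above TS-R.

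Members that passed the filter mainly through high TS-R counts were likely to be lower in NTS-R, so the following counts are again a description. By edgeR 0 members and 0 of all genes passed an adjusted p of 0.05 in this comparison. At an unadjusted p under 0.05, 36 members were lower in NTS-R and 0 higher, against 14.1% and 5.59% of all genes. DESeq2 called 9 members lower, against 7.14% of all genes, voomWithQualityWeights called 30, against 7.28%, and edgeR without the filter called 4, against 1.14%. The 36 of 76 tested members became 9 of 62 without TS-R replicate 3 (8.44% of all genes lower) and 16 of 86 without NTS-R replicate 1 (15 lower and 1 higher, against 11.3% and 4.66%). They became 55 of 74 without TS-R replicate 1 (16.2%) and 60 of 86 without NS-R replicate 3 (14.4%). Leaving out TS-R replicate 1 gave 12 members past the adjusted threshold (5.75% of all genes) and leaving out TS-R replicate 4 gave 1 (4.21% of all genes). The median fitted log2 fold change of the tested members was -3.49, against -0.03 over all genes tested.

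NS-R compared with WTS-R asks the same of donor Nlrp3 without diabetes, and here a single library carried the difference. The mean log2 summed level was 3.73 ± 3.32 (SD, n = 3) in NS-R and 0.99 ± 0.53 (SD, n = 3) in WTS-R. The difference of 2.74 was close to the pooled SD of 2.38 and was 0.83 without NS-R replicate 3. NS-R replicate 3 was also the only library of NS-R and WTS-R with high Xist (459.5 CPM) and no Ddx3y count. Sex therefore cannot be told apart from other traits of that library. NS-R replicates 1 and 2, at 3.08 and 4.05 CPM, were just above the highest WTS-R library at 2.52 CPM, with exact counting intervals of 2.54 to 3.70, 3.16 to 5.10 and 1.82 to 3.41 CPM. In 1 of the 124 members all NS-R values lay above all WTS-R values, against 5.67% of all genes. By edgeR 0 members and 0 of all genes passed an adjusted p of 0.05, and at an unadjusted p under 0.05 17 members were higher and 0 lower, against 4.92% and 0.388% of all genes. Without NS-R replicate 3 the number at that p was 1 of 86 tested (6.63% of all genes higher), and it was 28 of 86 without NS-R replicate 2 (4.93%) and 37 of 86 without NS-R replicate 1 (3.25%). It was 4, 3 and 4 of 86 without WTS-R replicate 1, 2 and 3 (4.67%, 4.67% and 5.84%).

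DESeq2 called 3 members higher in NS-R, Ighv6-3, Ighv1-77 and Ighv1-76, against 1.10% of all genes, and voomWithQualityWeights called 0, against 0.0811% in either direction. Ighv6-3 was at 1.65, 0 and 10.5 CPM in NS-R, from 61, 0 and 178 counts, and had no count in WTS-R. Its DESeq2 adjusted p was 0.0085 and its edgeR adjusted p 0.438. Ighv1-77 was at 0, 0 and 14.3 CPM in NS-R and had no count in WTS-R, so that 242 counts of NS-R replicate 3 made up its whole difference.

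NTS-R compared with NS-R asks how diabetic and non-diabetic donors compare among those with the Nlrp3 knockout, and it shares libraries with both comparisons above. The mean log2 summed level was 6.49 ± 0.98 (SD, n = 3) in NTS-R and 3.73 ± 3.32 (SD, n = 3) in NS-R. The difference of 2.76 was close to the pooled SD of 2.45, and NS-R replicate 3 lay above all 3 NTS-R libraries. Without NS-R replicate 3 it was 4.67. In 1 of the 124 members, Ighv1-61, all NTS-R values lay above all NS-R values, against 3.44% of all genes. Ighv1-61 was at 0.174, 0.207 and 0.211 CPM in NTS-R, against 0, 0 and 0.118 CPM in NS-R. The NTS-R values are 3 counts in each library, the limit that a count of 0 allows. The value of NS-R replicate 3 is under its own limit of 0.177 CPM.

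By edgeR 0 members and 0 of all genes passed an adjusted p of 0.05 in NTS-R compared with NS-R. At an unadjusted p under 0.05, 2 members were higher, Ighv5-15 and Ighv1-19, against 1.25% of all genes, and 1 was lower, Ighv1-77, against 5.11%. Ighv5-15 was at 0, 4.49 and 1.06 CPM in NTS-R, against 0, 0 and 0.118 CPM in NS-R. Ighv1-77 had no count in NTS-R and was the only member called by DESeq2 (adjusted p 7.2e-06, against 1.18% of all genes lower), again through NS-R replicate 3 alone. The limma fit with voomWithQualityWeights called 0 members, against 0.0695% of all genes in either direction. Without NS-R replicate 3, 43 of 86 tested members were higher in NTS-R at an unadjusted p under 0.05, against 2.01% of all genes. The 3 members became 1, a higher one, without NTS-R replicate 2, NTS-R replicate 3 or TS-R replicate 4 (1.14%, 0.622% and 1.37% of all genes higher). Without TS-R replicate 1 they became 4 higher and 1 lower (1.53% and 6.04%). Deviations from the group means were weakly correlated in same-numbered NTS-R and NS-R libraries (0.172, 0.111 and 0.187). In these groups pairs with other numbers reached 0.151, and over all groups 12 of 45 such pairs passed 0.1. These correlations therefore do not show that replicate numbers pair libraries. With the replicate number as a block and an unadjusted p under 0.05, 18 members were higher and 1 lower, against 1.25% and 4.74% of all genes, and 0 passed the adjusted threshold in edgeR.

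The interaction, which takes the difference TS-R minus WTS-R away from the difference NTS-R minus NS-R, was negative for most members. WTS-R held no count in 44 of the 76 tested members. For these the fitted size of TS-R minus WTS-R, and so of the interaction, is not a measured value. Members kept by the filter mainly through high TS-R counts favour negative values, so the following counts are a description too. By edgeR 0 members and 0 of all genes passed an adjusted p of 0.05, and at an unadjusted p under 0.05 52 members had a negative and 0 a positive value, against 13.6% and 4.70% of all genes. DESeq2 called 31 members lower, against 5.74% of all genes, voomWithQualityWeights called 2, against 7.24%, and edgeR without the filter called 1, against 0.268%. The smallest p belonged to Ighv1-82, at 0.174, 0.552 and 0.352 CPM in NTS-R and 4.06, 6.36, 63.9 and 26.5 CPM in TS-R, against 0.027, 0.114 and 6.14 CPM in NS-R and 0, 0 and 0.063 CPM in WTS-R (edgeR adjusted p 0.120, DESeq2 0.00033). Without NS-R replicate 3 the number of members at an unadjusted p under 0.05 was 5 of 86 tested, against 13.1% of all genes lower, and leaving out TS-R replicate 1 gave 4 members past the adjusted threshold (2.99% of all genes).

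The breadth of usage differed between the groups in the same order as the level. The number of Ighv genes with 3 or more counts was 43, 59 and 68 in NTS-R (56.7 ± 12.7, SD, n = 3) and 71, 91, 111 and 91 in TS-R (91.0 ± 16.3, SD, n = 4). It was 7, 6 and 75 in NS-R (29.3 ± 39.6, SD, n = 3) and 4, 2 and 5 in WTS-R (3.67 ± 1.53, SD, n = 3). TS-R did not overlap with NTS-R or with WTS-R in this number, and NS-R replicate 3 again ranked with TS-R. Of the 20 pseudogenes and their reads little was seen, at most 0.182% of Ighv counts in every library except WTS-R replicate 1, where a single count made 2.38%.

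Breadth was also compared at equal numbers of Ighv counts. When each library was thinned to 23 Ighv counts, the total of WTS-R replicate 2, the expected number of genes with at least 1 count was 12.8, 16.8 and 15.3 in NTS-R and 17.6, 17.1, 17.96 and 18.2 in TS-R. It was 9.70, 11.6 and 17.4 in NS-R and 12.1, 15 and 10.6 in WTS-R. TS-R lay above WTS-R without overlap here too, by 5.19 genes on a scale that cannot pass 23 genes. Among the 8 libraries with 700 or more Ighv counts, thinning to 762 counts left 64.0, 64.6 and 68.9 genes in NTS-R, 71.2, 77.2, 82.8 and 82.7 in TS-R and 74.3 in NS-R replicate 3, so NTS-R stayed below TS-R by 12.6 genes. This second thinning was added after the data were seen.

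The leading genes held a smaller share of Ighv counts in TS-R than in WTS-R. Each library's own 5 highest genes held 54.6%, 28.6% and 42.4% of Ighv counts in NTS-R and 24.0%, 33.3%, 26.7% and 25.0% in TS-R. They held 71.1%, 66.2% and 26.6% in NS-R and 66.7%, 52.2% and 73.7% in WTS-R. TS-R lay below WTS-R without overlap, by 36.9 percentage points (27.3% ± 4.17 in TS-R, n = 4, and 64.2% ± 10.97 in WTS-R, n = 3, SD), and NTS-R overlapped with TS-R through replicate 2. A small sample of counts raises such a share by itself. The inverse Simpson index, the number of equally used genes that would give the same chance of drawing 1 gene at both of 2 draws, was computed from counts drawn without replacement, which limits the effect of depth. It was 8.27, 30.6 and 20.6 in NTS-R, 37.0, 30.2, 38.9 and 41.1 in TS-R, 3.39, 11.1 and 34.6 in NS-R, and 6.38, 25.3 and 7.90 in WTS-R. TS-R exceeded WTS-R without overlap also in this measure (difference of mean log2 values 1.75, pooled SD 0.69), although the WTS-R values rest on 23 to 42 counts.

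Pielou's evenness, which runs to 1 when all detected genes share the counts equally, did not separate the groups. It was 0.723, 0.877 and 0.807 in NTS-R, 0.879, 0.832, 0.837 and 0.878 in TS-R, 0.629, 0.859 and 0.864 in NS-R, and 0.794, 0.963 and 0.845 in WTS-R. TS-R and WTS-R differed by -0.01 at a pooled SD of 0.06, and the sign turned without WTS-R replicate 2. NTS-R replicate 1 and NS-R replicate 1 had the lowest values of the 13, and in both a single segment led by far.

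**Figure D2:**
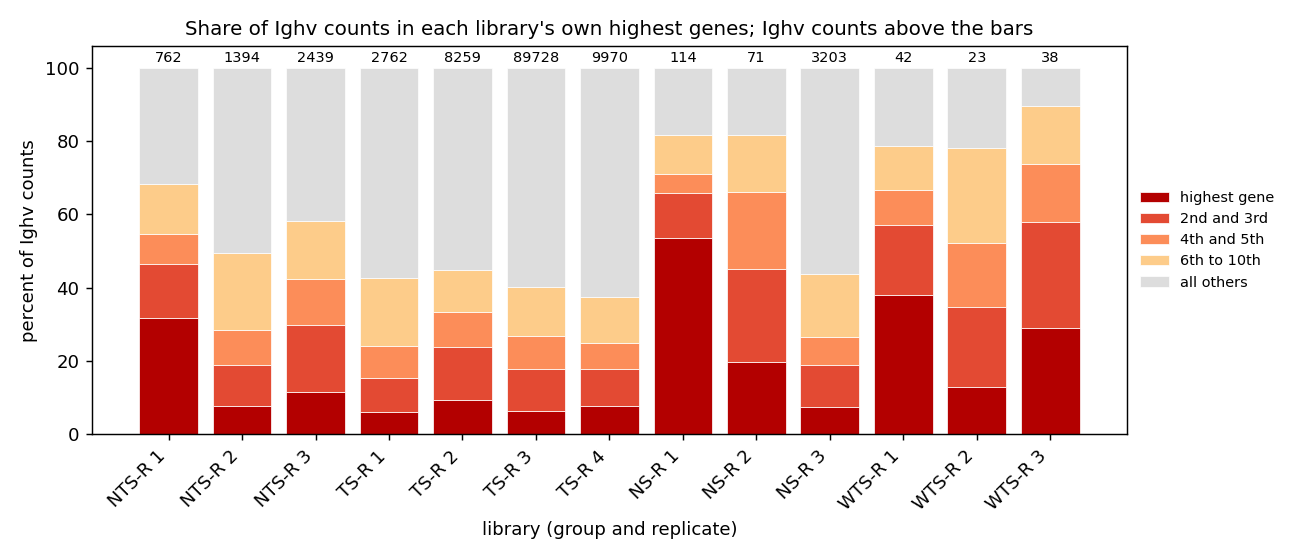
Percent of Ighv counts in each library's own highest gene, in its genes of rank 2 to 3, 4 to 5 and 6 to 10, and in all other genes, with the number of Ighv counts printed above each bar. The highest gene alone held 53.5% in NS-R replicate 1, 38.1% in WTS-R replicate 1 and 31.6% in NTS-R replicate 1, against 6.08% to 9.24% in the 4 TS-R libraries.

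Which segments led differed from library to library. In NTS-R replicate 1 the first was Ighv13-2, the only gene of its family in the table, with 241 of 762 counts or 31.6% (Wilson 95% interval 28.4% to 35.0%), followed by Ighv11-2 with 67 counts. In no other library did Ighv13-2 pass 1.51%. NTS-R replicate 2 was led by Ighv3-6 (7.75%) and NTS-R replicate 3 by Ighv9-3 (11.6%) and Ighv1-9 (10.5%). The TS-R libraries were led by Ighv9-1 (6.08%), Ighv1-26 (9.24%), Ighv3-6 (6.34%) and Ighv9-3 (7.77%), so no TS-R library shared its first gene with another. In NS-R replicate 1 Ighv6-3 made 61 of 114 counts or 53.5% (Wilson 95% interval 44.4% to 62.4%), in NS-R replicate 2 Ighv3-6 made 19.7%, and in NS-R replicate 3 Ighv1-77 made 7.56%. In WTS-R the first genes were Ighv2-9-1 with 16 of 42 counts, Ighv1-26 and Ighv1-81 with 3 of 23 each, and Ighv5-9-1 with 11 of 38.

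Few segments were common to the leading sets. Among the 8 libraries with 700 or more Ighv counts, 37 genes entered the 10 highest of at least 1 library and 21 of them entered in exactly 1. Ighv3-6 was among the 10 highest in all 8, from 2.62% in NTS-R replicate 1 to 7.79% in NTS-R replicate 3, and Ighv9-3 was among them in 6. In all 8 libraries 30 of the 124 members had 3 or more counts. With each of the 13 libraries weighing the same, the largest mean shares were those of Ighv3-6 (6.53%), Ighv6-3 (5.45%), Ighv1-26 (4.08%) and Ighv9-3 (4.03%). The mean of Ighv6-3 rests on NS-R replicate 1, and that of Ighv2-9-1 (3.52%) on WTS-R replicate 1. Ighv1-77 (7.56% in NS-R replicate 3) had no count in NTS-R, NS-R replicates 1 and 2 or WTS-R, and made at most 0.362% in TS-R.

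The likeness of 2 libraries was described with Morisita's index over the 124 genes, which is 1 for equal usage and near 0 for usage without shared genes. Between the 4 TS-R libraries it was 0.587 to 0.898, with a median of 0.730. Within NTS-R it was 0.688 for replicates 2 and 3, and 0.188 and 0.132 for replicate 1 with each of them. The index of NTS-R replicate 1 did not pass 0.194 with any of the other 7 libraries. NTS-R replicate 2 reached 0.825 with TS-R replicate 2, inside the range within TS-R, and the median over the 19 pairs across groups was 0.652. These are descriptions over pairs that share libraries, and carry no test.

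**Figure D3:**
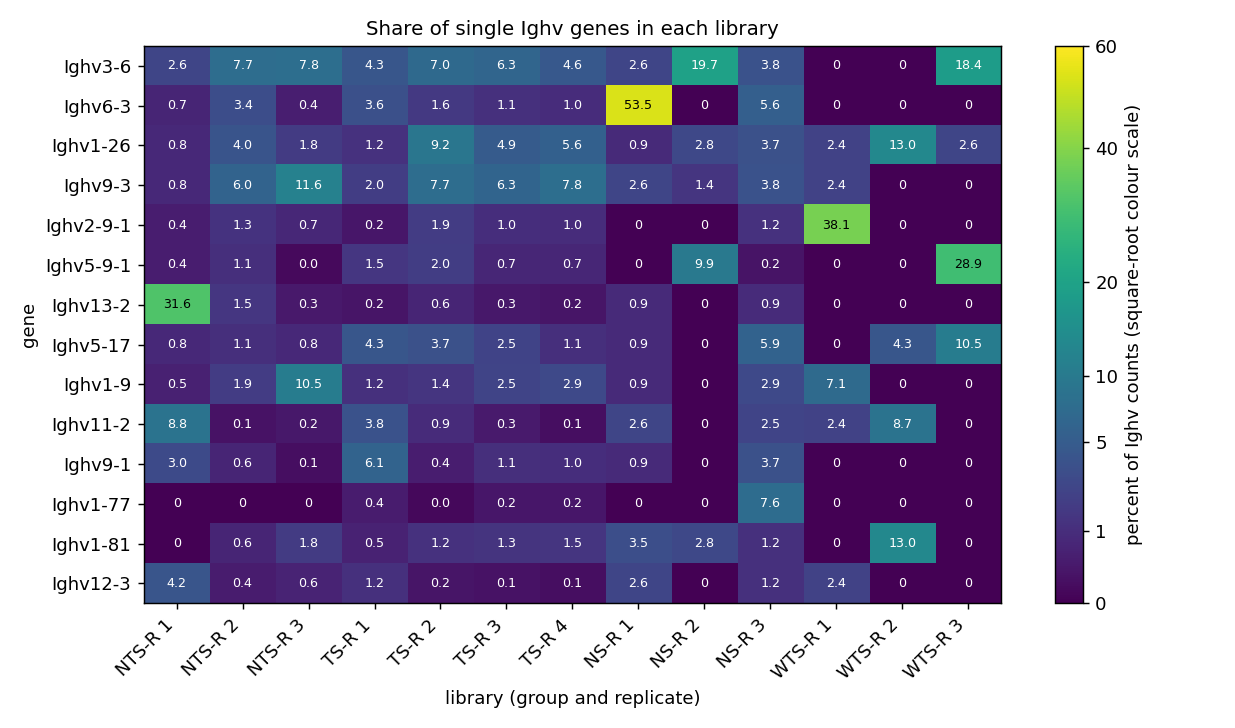
Percent of Ighv counts held by 14 Ighv genes (rows) in the 13 libraries (columns), with a square-root colour scale and the value in each cell. Ighv3-6 was present in every library of 700 or more counts, while Ighv13-2 in NTS-R replicate 1, Ighv6-3 in NS-R replicate 1 and Ighv2-9-1 in WTS-R replicate 1 each stood out in a single library.

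By family, Ighv1, which holds 65 of the 124 members (52.4%), made 28.6%, 39.7% and 47.7% of Ighv counts in NTS-R and 34.8%, 44.2%, 51.6% and 52.7% in TS-R. It made 19.3%, 40.8% and 50.6% in NS-R and 31.0%, 34.8% and 15.8% in WTS-R. The lowest shares of Ighv1 thus fell in libraries where another family led, Ighv13 in NTS-R replicate 1 (31.6%), Ighv6 in NS-R replicate 1 (57.0%) and Ighv5 in WTS-R replicate 3 (39.5%). Ighv3, with 7 members, was even across the 8 deeper libraries (4.56% to 9.99%), and so was Ighv9, with 4 members, apart from NTS-R replicates 1 and 3 (3.81% and 12.1%).

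The small families known from mouse B-1a cells set apart a few libraries rather than a group. Ighv11, with 2 members, made 8.79%, 0.143% and 0.246% of Ighv counts in NTS-R and 3.84%, 0.932%, 0.323% and 0.0903% in TS-R. It made 2.56% in NS-R replicate 3 and rested on at most 3 counts in the other NS-R and the WTS-R libraries. Ighv12, whose only member in the table is Ighv12-3, made 4.20%, 0.359% and 0.574% in NTS-R, 1.16%, 0.194%, 0.137% and 0.0903% in TS-R, and 1.19% in NS-R replicate 3. It made 2.63% in NS-R replicate 1 and 2.38% in WTS-R replicate 1, on 3 counts and 1 count, and had no count in NS-R replicate 2 and WTS-R replicates 2 and 3. Among the 8 libraries with 700 or more Ighv counts, NTS-R replicate 1, TS-R replicate 1 and NS-R replicate 3 were the high ones for both families, and the groups overlapped. As levels, Ighv11-2 was at 3.88, 0.138 and 0.422 CPM in NTS-R and 3.56, 5.21, 9.55 and 0.514 CPM in TS-R. It is 98.9% identical to Ighv11-1, the other member of its family.

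**Figure D4:**
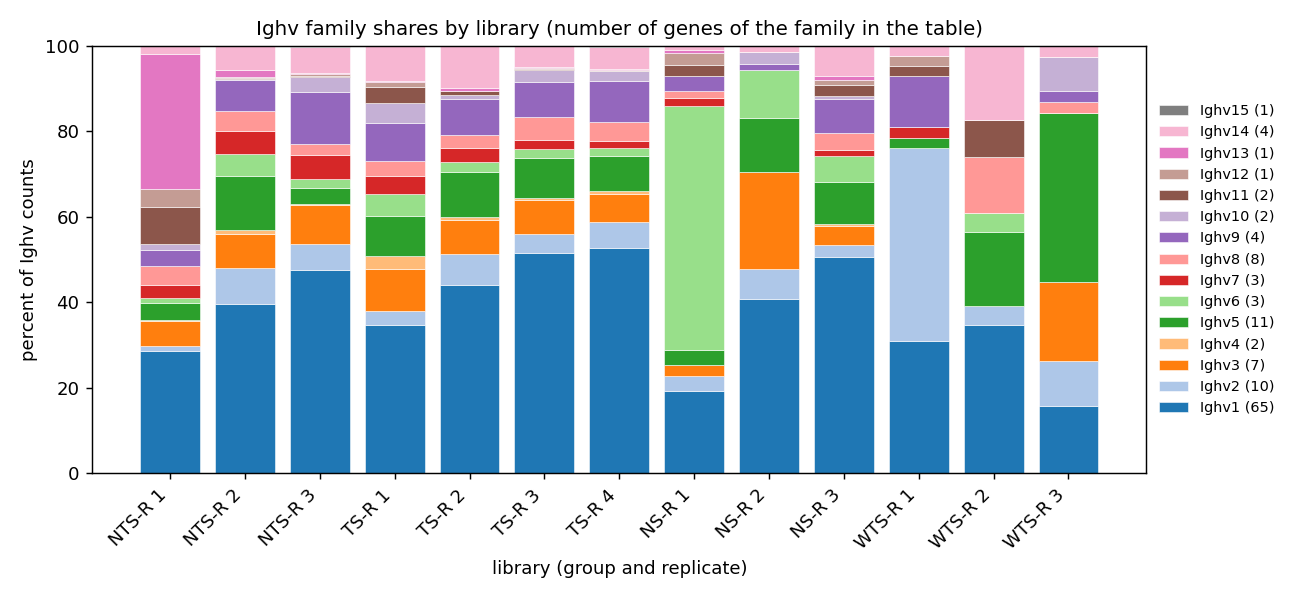
Percent of Ighv counts in each of the 15 Ighv families, per library, with the number of genes of the family in the table given in the legend. Ighv1 made 34.8% to 52.7% in TS-R. Ighv13 in NTS-R replicate 1, Ighv6 in NS-R replicate 1, Ighv2 in WTS-R replicate 1 and Ighv5 in WTS-R replicate 3 each took a far larger share than in other libraries.

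Position along the locus was described by dividing the 124 members into 4 parts of 31 genes. The first part lies nearest to the diversity, joining and constant genes and holds none of the Ighv1 family. It made 20.2%, 28.3% and 16.1% of Ighv counts in NTS-R and 36.4%, 28.7%, 20% and 22.1% in TS-R. It made 11.4%, 22.5% and 25.7% in NS-R and 52.4%, 47.8% and 52.6% in WTS-R. WTS-R was above every other library, but on 22, 11 and 20 counts, with Wilson 95% intervals of 37.7% to 66.6%, 29.2% to 67.0% and 37.3% to 67.5%. Without the leading gene of that part in each library (Ighv2-9-1, Ighv5-15 and Ighv5-9-1) the WTS-R shares were 23.1%, 42.9% and 33.3%.

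The constant genes that rearranged segments are spliced to showed which antibody classes the libraries held. Ighm, the class of naive and B-1 cells, made 70.1%, 5.25% and 10% of heavy constant counts in NTS-R and 21.5%, 20.1%, 5.41% and 5.62% in TS-R. It made 86.5%, 62.1% and 12.1% in NS-R and 92.3%, 68.1% and 73.2% in WTS-R. NTS-R replicate 1, with its narrow V usage, was the only library above 700 Ighv counts in which Ighm led. In the others IgA or IgG genes led, Igha with 60.2% and 48.6% in NTS-R replicates 2 and 3, 57.7%, 35.2%, 9.93% and 54.5% in TS-R and 44.6% in NS-R replicate 3. Per 100 heavy constant counts there were 16.8, 18.9 and 25.7 Ighv counts in NTS-R and 10.9, 17.1, 13.2 and 18.4 in TS-R. There were 8.04, 9.61 and 18.3 in NS-R and 8.50, 5.29 and 5.39 in WTS-R, so every WTS-R library had fewer Ighv counts per constant count than every TS-R library.

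A companion list of 37 genes of heavy chain expression (constant and light chain constant genes, rearrangement, switching and surrogate light chain genes, transcription factors, secretion factors and receptor partners) was read in the same fit, and 29 of them were tested. In TS-R compared with WTS-R, an unadjusted p under 0.05 was reached by 24, all higher, against 15.2% of all genes. At the adjusted threshold 0 passed in edgeR and 23 in DESeq2, against 9.07% of all genes higher in DESeq2. In NTS-R compared with TS-R, 23 were lower, against 14.1% of all genes, and 0 higher. By adjusted p these were 0 in edgeR and 16 in DESeq2, against 7.14% of all genes in DESeq2. In NS-R compared with WTS-R 7 were higher, against 4.92% of all genes. By adjusted p these were 0 in edgeR and 4 in DESeq2, against 1.10% in DESeq2. In NTS-R compared with NS-R 1 was lower, against 5.11% of all genes (by adjusted p 0 in edgeR, 0 in DESeq2). Jchain, the joining chain of secreted IgA and IgM, was at 34.4, 99.1 and 161 CPM in NTS-R, 129, 510, 2192 and 595 CPM in TS-R, 4.81, 5.53 and 179 CPM in NS-R, and 2.52, 1.41 and 2.65 CPM in WTS-R. Its order over the libraries was almost that of the summed Ighv level.

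Among the transcription factors, Pou2af1, the octamer coactivator of immunoglobulin genes, was at 4.58, 1.73 and 3.02 CPM in NTS-R, 3.59, 49.2, 352 and 18.9 CPM in TS-R, 1.30, 0.855 and 4.02 CPM in NS-R, and 0.901, 0.847 and 0.693 CPM in WTS-R. Pax5, the B cell identity factor that is lost in plasma cells, was at 3.54, 0.345 and 0.422 CPM in NTS-R, 0.940, 35.9, 213 and 12.6 CPM in TS-R, 0.865, 0.798 and 1.06 CPM in NS-R, and 0.481, 0.904 and 0.504 CPM in WTS-R. Pax5 was thus at most 1.06 CPM in TS-R replicate 1, NTS-R replicates 2 and 3 and NS-R replicate 3, all of which had 92.7 CPM or more of Ighv. Over the 13 libraries Ebf1 lay at 55.1 to 109.6 CPM, Xbp1 at 81.8 to 280.0 CPM and Ung at 6.97 to 16.95 CPM. Rag1, Rag2 and Dntt, which act during rearrangement, did not pass 1.56 CPM in any library.

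The 3 non-immunoglobulin genes whose CPM ranked most like the summed Ighv level over the 13 libraries, among 15116 genes with a mean CPM of 1 or more, were Jchain (Spearman rho 0.989), Gm5424 (0.962) and Il7r (0.945, tied with Ms4a4b). Il7r and Ms4a4b are known mainly from lymphocytes of the T lineage. The rank correlations share library depth and tissue content with the Ighv sum and are given without a test.

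The markers of other lymphoid cells moved with these results in part of the libraries. The 9 genes of the B cell list summed to 42.0, 7.18 and 12.1 CPM in NTS-R, 26.8, 477, 2367 and 176 CPM in TS-R, 17.1, 17.0 and 20.6 CPM in NS-R, and 10.6, 13.6 and 13.7 CPM in WTS-R. At an unadjusted edgeR p under 0.05, all 9 were higher in TS-R compared with WTS-R, against 15.2% of all genes. All 9 were lower in NTS-R compared with TS-R, against 14.1%, and 0 passed that p in NS-R compared with WTS-R. The 8 genes of the plasma cell list summed to 232.5, 255 and 341 CPM in NTS-R, 282, 810.4, 2693 and 862 CPM in TS-R, 288, 234 and 315 CPM in NS-R, and 155, 117 and 318 CPM in WTS-R. Of these, 5 were at that p in TS-R compared with WTS-R (higher) and in NTS-R compared with TS-R (lower). In NS-R compared with WTS-R 2 were higher, against 4.92% of all genes. Similar sums of the plasma cell list stood on different genes. In WTS-R replicate 3 Xbp1 was at 184.6, Irf4 at 117 and Jchain at 2.65 CPM. In NS-R replicate 3 the same genes were at 81.8, 37.4 and 179 CPM. The sum therefore does not rank the libraries by plasma cell content. The 6 genes of the T cell list summed to 17.6, 7.80 and 7.25 CPM in NTS-R, 18.5, 190, 496 and 48.4 CPM in TS-R, 6.32, 10.1 and 13.8 CPM in NS-R, and 4.87, 5.48 and 9.33 CPM in WTS-R. The 6 genes of the lymph node vessel and stroma list summed to 32.4, 20.9 and 9.21 CPM in NTS-R, 23.5, 421, 1902 and 78.0 CPM in TS-R, 23.0, 20.7 and 24.1 CPM in NS-R, and 17.8, 14.6 and 48.9 CPM in WTS-R. All 6 genes of the T cell list and 5 of the lymph node list were higher at that p in TS-R compared with WTS-R. The same numbers were lower in NTS-R compared with TS-R, and 0 passed in NS-R compared with WTS-R. Glycam1 of the lymph node list had no count in NTS-R replicate 2, NS-R replicate 2 and WTS-R replicate 3. It reached 74.3, 1166 and 8.54 CPM in TS-R replicates 2, 3 and 4.

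The lymph node sum lay above the WTS-R range in TS-R replicates 2, 3 and 4, at 421, 1902 and 78.0 CPM. The Ighv levels of these libraries were 559, 3059.7 and 640 CPM. The part of lymph node content in the result was not tested. TS-R replicate 1 had lymph node and B cell sums of 23.5 and 26.8 CPM, against 14.6 to 48.9 CPM and 10.6 to 13.7 CPM in WTS-R, and an Ighv level of 92.7 CPM, against 1.30 to 2.52 CPM in WTS-R. NTS-R replicates 2 and 3 had Ighv levels of 96.2 and 172 CPM at B cell sums of 7.18 and 12.1 CPM, inside or below the WTS-R range of 10.6 to 13.7 CPM. NS-R replicate 3 had 189 CPM of Ighv at a B cell sum of 20.6 CPM. The clock gene Arntl also ran with the split between libraries, at 12.7, 0.828 and 2.39 CPM in NTS-R, 4.03, 5.82, 16.0 and 3.15 CPM in TS-R, 17.5, 12.9 and 3.13 CPM in NS-R, and 13.5, 16.5 and 18.9 CPM in WTS-R. All 6 libraries with at most 44.2 CPM of Ighv had Arntl at 12.7 CPM or more, as did TS-R replicate 3 with the highest Ighv level, the time of collection is not given in the sources used, and its part in the result was not tested. The airway transcripts of NS-R replicates 1 and 2, which include the mucosal antibody receptor Pigr at 30.9 and 47.8 CPM, stood beside the low Ighv counts of these libraries, and their part was not tested either. The libraries high in Xist, TS-R replicate 3 and NS-R replicate 3, had the highest Ighv level of their groups, 3059.7 and 189 CPM. The part of sex was not tested.

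**Figure D5:**
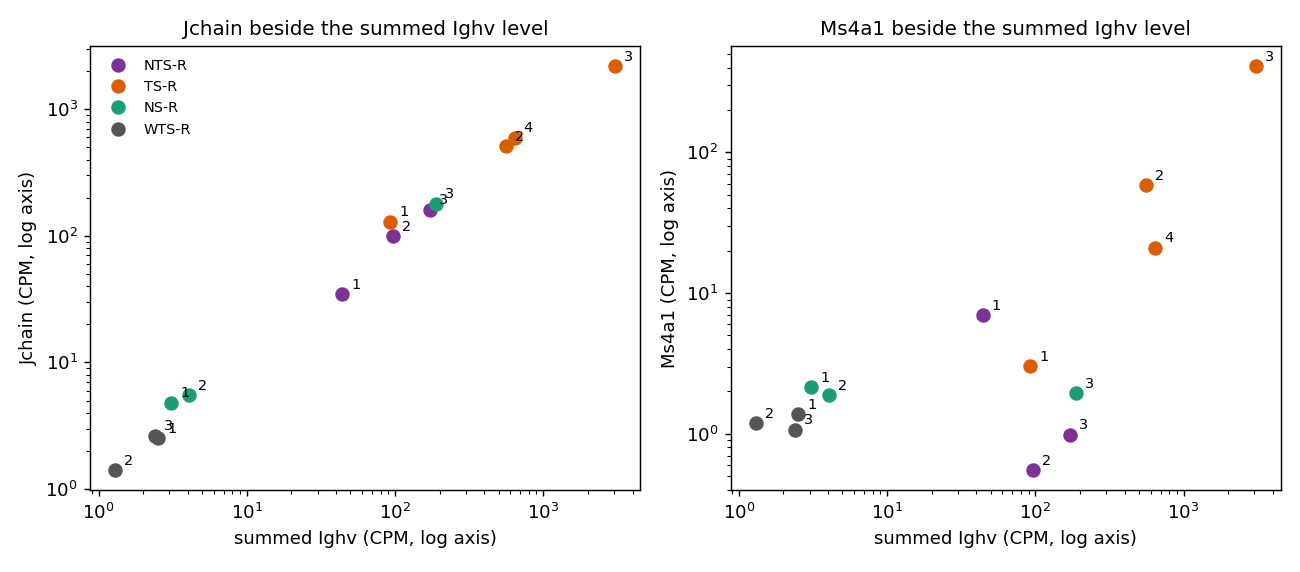
Jchain (left) and the B cell surface gene Ms4a1 (right) against the summed Ighv level of each library, all in CPM on log axes, with points coloured by group and labelled with the replicate number. Jchain ran with the Ighv level over all 13 libraries, whereas Ms4a1 was at 0.552 to 3.02 CPM in NTS-R replicates 2 and 3, TS-R replicate 1 and NS-R replicate 3, against 1.07 to 1.38 CPM in WTS-R.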

How the data were processed

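Per the labels' protocols, RNA was extracted with TRIzol, its integrity checked, and paired-end libraries made with an ABclonal mRNA-seq kit. The authors deposited raw counts per gene with 1 column per library; HISAT2 and featureCounts are named in the submitters' processing notes. Versions, genome build, annotation release, strand setting and treatment of multi-mapping reads were not given in the sources used here. Identifiers were matched to symbols through GENCODE M21 (33302 of 34013). Ighv members and all lists were chosen with earlier results of these data known.

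CPM values are counts scaled to all counts of the library. Groups were compared with edgeR 4.0.16 in R 4.3.3: a quasi-likelihood fit of all 13 libraries with TMM normalization after filterByExpr, which kept 17270 genes, with Benjamini-Hochberg adjustment over all of them. The common coefficient of biological variation (0.389) and the prior degrees of freedom (3.5) came from that fit. DESeq2 1.42.0 and limma 3.58.1 were alternatives, beside RLE normalization, no filter, other detection minimums, a replicate block and leaving out each library. The fit was tested on simulated data. Pooled ratios are sums of counts over sums of library totals, with exact intervals conditional on the total; the floor is 3 counts over the group. Shares have Wilson or exact Clopper-Pearson intervals.

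Genes were named by a rule: the 10 largest mean shares, the first gene of each library, up to 5 genes per direction and comparison with the smallest p, and the 3 genes most like the sum. Ighv1-76, further genes of the companion and marker lists, Xist, Ddx3y and Myh4 were chosen after their values were seen. Every pair of libraries within a group differed by more than sampling noise (lowest chi-square per degree of freedom 36.0). Whether replicate numbers pair libraries was checked by the correlation of deviations from group means. It passed 0.1 in all 3 same-numbered pairs of NTS-R and NS-R (0.172, 0.111 and 0.187). It did not in all same-numbered pairs of any other groups (-0.337 to 0.36 over all 18 pairs). Of 45 pairs with other numbers 12 passed 0.1 as well, so the numbers were not shown to pair libraries. A result on 1 gene of the companion list is not reported here.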

Additional observations from a re-analysis of the deposited data

Results flagged for a closer look

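In TS-R, the only group of 4 libraries, 9 of 49 values tested (29 named genes, 15 families and 5 usage measures) had a highest or lowest library whose distance to its neighbour was beyond Dixon's 95% limit. Chance gives about 1 such value in 20. In TS-R replicate 3 these were Ighv9-1 at 34.2 CPM (2.17 to 6.49 CPM in the other 3), Ighv12-3 at 4.19 CPM, Ighv1-58 at 21.2 CPM (0.0671 to 2.57 CPM in the other 3), Ighv5-15 at 11.5 CPM, Ighv1-5 at 10.5 CPM and Ighv1-74 at 58.3 CPM (1.81 to 5.20 CPM in the other 3). That library also had the highest summed Ighv level, 3059.7 CPM. In TS-R replicate 1 they were shares of Ighv counts, 2.90% for family Ighv4 (0.409% to 0.792% in the other 3), 5.25% for family Ighv6 (1.93% to 2.47%) and 1.16% for family Ighv12 (0.0903% to 0.194%). TS-R replicate 1 had the fewest Ighv counts of the group.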

How the results depend on the processing

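Of 215 recomputed values of the 20 usage results (each a usage measure within a comparison), 210 stayed within 1 pooled SD of the reported value and 5 did not. The genes detected in TS-R compared with WTS-R differed by 5.19 after thinning to 23 counts, on a scale that ends at 23, and by 59.8 with members of 95% identity or more joined, in place of 87.3, and in NTS-R compared with TS-R by -2.74 and -12.6 after thinning to 23 and 762 counts, in place of -34.3. The first gene's share in place of the first 5 differed by -19.3 percentage points in TS-R compared with WTS-R. The sign turned in 11 settings, all for evenness, the top share or the effective number with differences under their pooled SD. Counts of members past an adjusted p of 0.05, 0 in edgeR, were 67 (DESeq2), 71 (voomWithQualityWeights), 61 (no filter) and 57 (replicate block) in TS-R compared with WTS-R, 9, 30, 4 and 7 in NTS-R compared with TS-R and 31, 2, 1 and 3 in the interaction. With the block, 3.58%, 0.376% and 0.0984% of all genes were called in these directions. DESeq2 called 3 in NS-R compared with WTS-R and 1 in NTS-R compared with NS-R. With single libraries left out these counts ranged from 0 to 62, 0 to 12 and 0 to 4 in the first comparisons and the interaction. Counts at an unadjusted p under 0.05 were 61 (voomWithQualityWeights) and 76 (no filter) in NTS-R compared with TS-R. The 61 of 76 tested were all lower, against 17% of all genes. The 76 of 124 were 75 lower and 1 higher, against 9.98% and 2.76% of all genes. They were 43 (DESeq2), 1 (voomWithQualityWeights), 41 (no filter) and 45 (replicate block) in NS-R compared with WTS-R, 9, 7 and 19 (voomWithQualityWeights, no filter, replicate block) in NTS-R compared with NS-R, and 14 (voomWithQualityWeights) in the interaction. With the block, 4.57% of all genes were higher in NS-R compared with WTS-R. The shares higher there were 5.49% (DESeq2), 10.3% (voomWithQualityWeights) and 4.79% (no filter). In NTS-R compared with NS-R the 9 were all higher, against 4.05% of all genes. The 7 were 6 higher and 1 lower, against 0.75% and 4.67%. The 19 were 18 higher and 1 lower, against 1.25% and 4.74%. In the interaction the 14 of 76 tested were all lower, against 18.8% of all genes. Leaving out single libraries gave 59 (10.8% of all genes higher) to 85 (15.2%, without NS-R replicate 3) in TS-R compared with WTS-R. In the interaction it gave 5 (13.1% of all genes lower) to 64 (10.9%, without NS-R replicate 1). It gave 9 to 60 in NTS-R compared with TS-R. The range was 1 to 37 in NS-R compared with WTS-R and 1 to 43 in NTS-R compared with NS-R. The cause was not tested. The replicate block used the numbers over all 13 libraries, and the correlations do not show that these numbers pair libraries. RLE normalization left every one of these counts as it was. The 23 to 114 Ighv counts of the WTS-R libraries and of NS-R replicates 1 and 2 limit every statement on single genes and shares there.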

Other observations

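Light chain V segments gave nearly the same picture of the level. The 124 Igkv genes summed to 108.1, 201 and 309 CPM in NTS-R, 171, 1162, 6544.8 and 1079 CPM in TS-R, 3.67, 10.4 and 449 CPM in NS-R, and 7.27, 3.67 and 6.11 CPM in WTS-R. Per 100 Igkv counts there were 34.7 to 59.3 Ighv counts in 12 of the libraries and 83.8 in NS-R replicate 1, where Ighv6-3 held 53.5% of the Ighv counts.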
